A study of Rattus norvegicus with 6 samples.

Results

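Neurons recognise each other, and glia recognise axons, through adhesion proteins on their surface. The measurements described here cover 56 genes of such proteins, read by 84 probe sets, out of 14217 genes and 31042 probe sets in the series. A gene was taken as a member when a probe set carried its symbol alone and that symbol belonged to the contactins, the contactin-associated proteins, the neurexins, the neuroligins, the cadherins, the protocadherins, the sidekicks or the Dscam, Slitrk, Cadm and Ncam families. The members fell into 14 families, and the value of a gene was the mean of its probe sets.

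All animals were male Sprague Dawley rats. Spared nerve injury (SNI) is a model of neuropathic pain that leaves a hind limb with only one branch of its sciatic nerve: here the sural branch on the left remained, and the cut ones were the common peroneal and the tibial. Control rats underwent a sham operation that laid these nerves bare without cutting. Tissue of the prelimbic cortex (PL) on the side opposite to the operated leg was taken 14 days after surgery, and mRNA was measured on rat expression arrays in 3 SNI samples and 3 control samples. Whether the 3 samples of a group are 3 rats is not in the labels. The p-values hence describe how far these samples scatter, and that scatter may be technical.

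Contactins and their relatives are immunoglobulin-domain proteins of axons that pair with contactin-associated proteins where axon and myelin meet. Neurexins on the presynaptic side bind neuroligins on the postsynaptic side, and Slitrk proteins bind receptor phosphatases across the same cleft. Cadherins are calcium-dependent proteins that mostly bind their own kind, and the clustered protocadherins, encoded side by side in the alpha, beta and gamma clusters, give single neurons different surface identities. Not every member is chiefly a neuronal protein: Cdh1, Cdh3, Cdh16 and Cdh17 are best known from epithelia and Cdh15 from muscle.

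In the deposited log2 values each probe set has a median of 0 across the 6 samples. Every value below is therefore a position relative to that median and not an expression level, and whether a member was expressed in the PL at all could not be read. For a gene with a single probe set, the middle pair of its 6 values lies at equal distances above and below 0 by construction. The median SD of a probe set was 0.0673 in SNI samples and 0.107 in control samples, and 70.1% of probe sets scattered more among controls; of the 56 members 31 did. The hybridization controls, transcripts of foreign origin that are added to each array, averaged 0.11 ± 0.07 in SNI samples and −0.16 ± 0.10 in control samples (SD, n = 3 each).

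Among the 56 genes, 3 were higher and 9 were lower in SNI samples at an unadjusted p under 0.05 in the limma fit over all genes. Those are 5.36% and 16.1% of the members, beside 3.96% higher and 9.19% lower over all genes tested. The genes on the lower side were Cntn1, Pcdhb12, Pcdh9, Cntn4, Pcdh8, Pcdha13, Cadm3, Slitrk1 and Cntn6, and those on the higher side were Sdk2, Cntnap1 and Cdh22. In each of the 12, the SNI samples did not overlap the control samples, and no other member was separated in this way. Over all genes, every SNI sample lay above every control sample in 6.39% and below every control sample in 13.7%. After Benjamini-Hochberg adjustment no member passed 0.05, and the share of all genes that did was 0%. In the following, higher and lower refer to the unadjusted threshold unless another is named.

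The members as a whole lay slightly below all genes in the median, and that gap was not tested. Their mean per sample was 0.0097, −0.043 and −0.015 in SNI samples, against 0.037, 0.0018 and 0.064 in control samples, and the groups overlapped. Their median log2 difference, SNI minus control, was −0.05 beside −0.01 over all genes, and 35 of the 56 differences were below 0, which is 62.5% of the members beside 54.8% of all genes. The remaining 44 genes did not pass the threshold. With 3 samples a group the median width of their 95% confidence intervals was 0.36 on the log2 scale, so small differences could not be told from 0 in them.

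**Figure D1:**
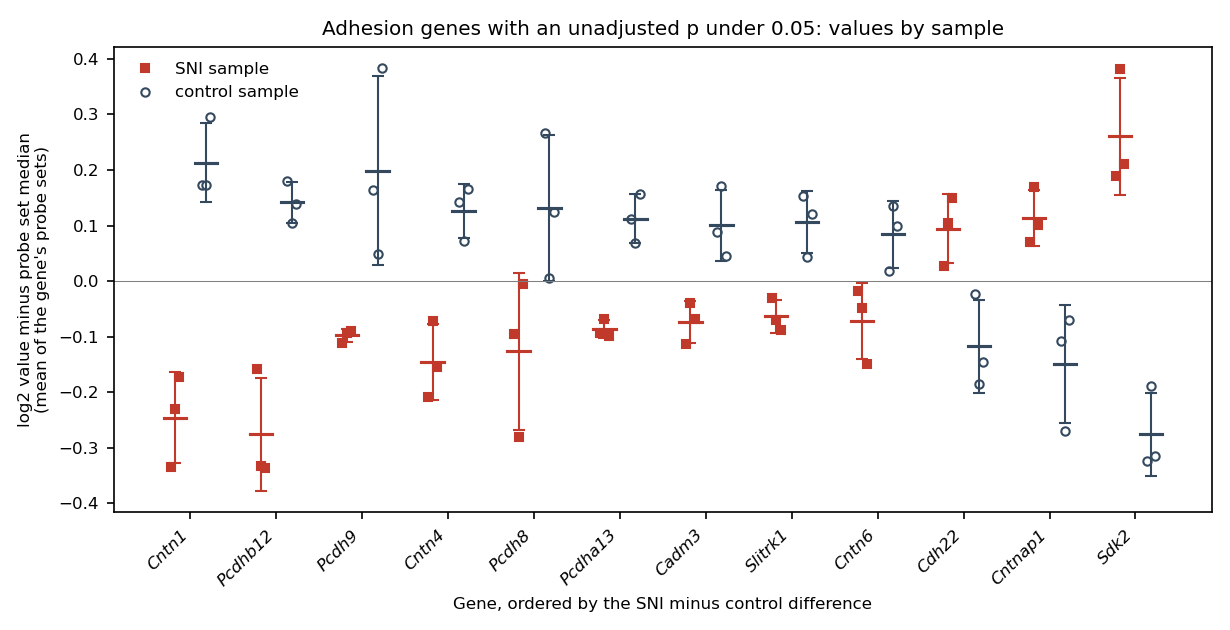
Values of the 12 genes past an unadjusted p of 0.05 in each sample, as log2 value minus the probe set median. Filled squares are SNI samples and open circles control samples, with the group mean and SD (n = 3 each). In the 9 genes on the left every SNI sample lies below every control sample, and in Cdh22, Cntnap1 and Sdk2 every SNI sample lies above.

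The contactins had the largest share of genes on the lower side of any family with more than 2 members: 3 of the 6 were lower and none was higher, with a family median of −0.12 (−0.069 with the hybridization controls as a covariate). Cntn1, which joins the contactin-associated protein Cntnap1 on the axon beside the node of Ranvier, had values of −0.33, −0.23 and −0.17 in SNI samples, against 0.17, 0.17 and 0.29 in control samples. All SNI samples lay well below all control samples, and no other member was lower by as much. The log2 difference was −0.46 (SE 0.066, limma adjusted p = 0.127), a linear ratio of 0.728.

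Cntn4, an axonal contactin known for guiding olfactory axons in mice, had values of −0.21, −0.07 and −0.15 in SNI samples, against 0.14, 0.07 and 0.17 in control samples. The groups did not overlap, and the difference was −0.27 (SE 0.059, adjusted p = 0.197). Cntn6, a contactin of the developing and adult brain also called NB-3, had values of −0.018, −0.05 and −0.15 in SNI samples, against 0.018, 0.13 and 0.10 in control samples. Its difference of −0.16 (SE 0.061, adjusted p = 0.335) was the weakest of the 12: it missed the unadjusted threshold when SNI sample 2, SNI sample 3, control sample 2 or control sample 3 was left out, with differences between −0.17 and −0.12.

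The other contactins showed no common direction. Cntn5 lay at −0.07, Cntn2, which sits beside the paranode together with Cntnap2, at 0.07, and Cntn3 at 0.12, and none of them passed the threshold. The highest value of Cntn3, 0.31, came from a single SNI sample, and the highest of Cntn2, 0.34, likewise.

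Cntnap1, the paranodal partner of Cntn1, was higher in SNI samples while Cntn1 was lower. Its values were 0.07, 0.17 and 0.10 in SNI samples, against −0.11, −0.27 and −0.07 in control samples. The groups did not overlap, and the difference was 0.26 (SE 0.068, adjusted p = 0.216). Of the other contactin-associated proteins, Cntnap2 had a difference of −0.09 and Cntnap5bl1 one of 0.08, and both were within the spread of the samples.

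Among the remaining immunoglobulin-domain adhesion molecules, Cadm3 was lower, Sdk2 was higher, and the Ncam and Dscam genes did not pass the threshold. Cadm3, a neuronal member of the SynCAM or nectin-like proteins that binds Cadm4 on myelinating cells of peripheral nerve, had values of −0.11, −0.04 and −0.07 in SNI samples, against 0.09, 0.17 and 0.04 in control samples. The groups were apart by a small margin, with a difference of −0.17 (SE 0.057, adjusted p = 0.276). Without SNI sample 1 it was −0.15 and no longer past the unadjusted threshold. Its binding partner Cadm4 had a difference of −0.21 with a wider error (SE 0.10), and Cadm1 lay at −0.02.

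Sdk2 had the largest difference of all members in either direction. Sidekicks are large adhesion proteins that bind their own kind and are known from the retina, where they match the processes of neurons in particular layers. The values of Sdk2 were 0.19, 0.38 and 0.21 in SNI samples, against −0.32, −0.19 and −0.32 in control samples. No SNI sample came near a control sample, and the difference was 0.54 (SE 0.072, adjusted p = 0.127), a linear ratio of 1.45. Its relative Sdk1 had a difference of 0.02 (SE 0.065), so that the family held the most separated gene and one near 0.

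Ncam1, the neural cell adhesion molecule that carries polysialic acid, had values of 0.07, 0.0075 and 0.06 in SNI samples, against −0.0053, 0.05 and −0.18 in control samples, and the groups overlapped. The gene difference was 0.09 (SE 0.070). Its 3 probe sets disagreed: one was higher in SNI samples by 0.22 with groups that did not overlap, and the other probe sets had differences of 0.07 and −0.02. Ncam2 lay at −0.14 (SE 0.12). Dscam, a homophilic guidance and self-avoidance molecule, lay at −0.05, the mean of one probe set at −0.20, which passed the unadjusted threshold, and another at 0.10.

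Across the synaptic cleft, neither the neurexins nor the neuroligins passed the threshold as genes. Nrxn2 had values of −0.10, 0.0052 and 0.20 in SNI samples, against −0.0052, 0.12 and −0.09 in control samples. Nrxn3 had values of 0.02, −0.09 and −0.02 in SNI samples, against 0.05, −0.19 and 0.03 in control samples. Both sets overlapped widely. The differences were 0.03 for Nrxn2, with a 95% confidence interval of −0.18 to 0.24, and 0.0093 for Nrxn3, with an interval of −0.17 to 0.19. In both genes the probe sets differed in sign, at 0.06 and −0.0023 for Nrxn2 and at −0.02 and 0.04 for Nrxn3.

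The neuroligins lay lower than the neurexins, but within error. Nlgn1, found at excitatory synapses, had values of −0.06, −0.12 and −0.03 in SNI samples, against 0.18, −0.15 and 0.29 in control samples. Control sample 2 was the lowest of the 6, below every SNI sample. The difference was −0.17 (95% confidence interval −0.42 to 0.07), and without control sample 2 it was −0.30 and past the unadjusted threshold (adjusted p = 0.0828). Nlgn3, found at excitatory and inhibitory synapses, had values of −0.13, −0.04 and 0.05 in SNI samples, against 0.02, 0.18 and 0.04 in control samples. The groups overlapped and the difference was −0.12 (95% confidence interval −0.28 to 0.04). Each of these genes had one probe set past the unadjusted threshold, at −0.34 for Nlgn1 and −0.18 for Nlgn3, and one nearer 0, at −0.0029 for Nlgn1 and −0.06 for Nlgn3.

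Slitrk1, a postsynaptic leucine-rich repeat protein that promotes synapse formation, was lower. Its values were −0.03, −0.07 and −0.09 in SNI samples, against 0.15, 0.04 and 0.12 in control samples. The groups did not overlap, with a difference of −0.17 (SE 0.055, adjusted p = 0.274). It was −0.16 and missed the unadjusted threshold without SNI sample 3. Of its 3 probe sets one carried most of the difference, at −0.42 (adjusted p = 0.0839 over all probe sets), and the others lay at −0.09 and 0.0029. Slitrk3 had a difference of −0.04.

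The clustered protocadherins leaned to the lower side. Of the 9 genes, 7 had a difference below 0, 2 were lower, none was higher, and the family median was −0.11. That median rested on single control samples: it was −0.020 without control sample 1 and −0.22 without control sample 2, and −0.21 with the hybridization controls as a covariate. Pcdhb12 had values of −0.16, −0.33 and −0.34 in SNI samples, against 0.18, 0.11 and 0.14 in control samples. All SNI samples were clearly below the control samples, with a difference of −0.42 (SE 0.066, adjusted p = 0.143), the second largest on the lower side among all members. Its 2 probe sets differed in size, at −0.68 and −0.15, and only the first passed the unadjusted threshold.

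Pcdha13, of the alpha cluster, had values of −0.09, −0.07 and −0.10 in SNI samples, against 0.11, 0.07 and 0.16 in control samples. Both groups were tight and apart, with a difference of −0.20 (SE 0.052, adjusted p = 0.216). Pcdhb17 had values of 0.04, −0.14 and −0.06 in SNI samples, against 0.84, −0.04 and 0.12 in control samples. The difference of −0.36 (SE 0.20) rested on control sample 1 and was −0.09 without it. Pcdhb6, Pcdhb9 and Pcdhb19 each lay at −0.11, Pcdhb21 at −0.00046, Pcdhb22 at 0.0028, and Pcdha12 at 0.07. Clustered protocadherin genes are related in sequence, and how far their probe sets read only 1 gene is uncertain.

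Several clustered genes are read together by probe sets that carry many symbols and so were left out of the members. A pair of probe sets for 15 Pcdha symbols had differences of −0.22 (SE 0.068, adjusted p = 0.237) and −0.26 (SE 0.10, adjusted p = 0.329). The SNI samples lay below all control samples on the first only. On the probe set for 13 Pcdhg symbols the difference was −0.03, and on the one for 14 Pcdhg symbols it was 0.11 (SE 0.061).

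Pcdhb12 shares a promoter element with beta genes that did not pass the threshold. Clustered protocadherin promoters are known for a conserved element with a CGCT core, read by the insulator protein CTCF. A 13-base run holding that core, GGTGGCGCTGCAG, is the longest run that the promoters of the measured beta genes share, and it was searched on both strands of the RefSeq promoter windows of GRCr8, which span 250 bases before and 50 after each gene start. Its presence in the 5 measured beta genes with a window was therefore fixed by that choice. It was present in 13 of 33469 promoters (0.0388%), of which 12 were beta genes, so that 12 of the 19 beta promoters in the table held it and the others did not; of all 35 clustered protocadherin promoters 12 held it. The letters around it are shown because the same run stood in front of the gene with the largest difference of the cluster and of one near 0. Capitals mark the run, all on the plus strand, at chr18:29413644-29413684 for Pcdhb12, chr18:29320148-29320188 for Pcdhb6, chr18:29379244-29379284 for Pcdhb9, chr18:29478760-29478800 for Pcdhb19 and chr18:29492145-29492185 for Pcdhb21.
Pcdhb12: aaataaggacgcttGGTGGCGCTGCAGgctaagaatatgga
Pcdhb6: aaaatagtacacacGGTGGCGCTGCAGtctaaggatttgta
Pcdhb9: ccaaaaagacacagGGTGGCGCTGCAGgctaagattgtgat
Pcdhb19: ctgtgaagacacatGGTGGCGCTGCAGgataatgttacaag
Pcdhb21: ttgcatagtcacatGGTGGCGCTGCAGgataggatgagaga

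The run thus went with differences of −0.42, −0.11, −0.11, −0.11 and −0.00046 in that order of genes. A match is only a description of letters in this window. Of the 56 members, 38 had a promoter window, and 6 further motifs were searched in them. The AP-1 site TGANTCA, searched on both strands, was in 4 of the 38 (10.5%) beside 7.33% of all promoters. The 4 were Cadm3, Cntn1, Cntn4 and Cdh20, so that 3 of the 8 lower genes with a window held it. The motifs were chosen with the differences known. Of the lower genes holding it, those with a site wholly before the gene start are printed, which leaves out Cntn1. The windows of Cadm3 (chr13:88349925-88349968, minus strand) and Cntn4 (chr4:140180614-140180660, plus strand) had the site in capitals.
Cadm3: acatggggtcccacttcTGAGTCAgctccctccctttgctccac
Cntn4: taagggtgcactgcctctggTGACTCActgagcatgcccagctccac

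The GC box GGGCGG was in 12 of the 38 members (31.6%) beside 33.1% of all promoters, and TATAAA in Pcdh8 alone beside 14.2%. CACGTG was in Cdh15 alone beside 6.42%. Neither TGACGTCA, in 1.83% of all promoters, nor GCGTGGGCG, in 0.544%, was in any member window.

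Outside the clusters, 2 of the 8 other protocadherins were lower and none was higher. Pcdh9, a delta protocadherin of cortical neurons, had values of −0.11, −0.09 and −0.09 in SNI samples, against 0.16, 0.05 and 0.38 in control samples. The SNI samples were nearly equal and lay below the scattered control samples, with a difference of −0.30 (SE 0.085, adjusted p = 0.234). Its probe sets gave −0.47 and −0.12, and only the first passed the unadjusted threshold.

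Pcdh8, also called arcadlin, is induced by activity in rat hippocampal neurons and promotes the internalisation of N-cadherin there. Its values were −0.09, −0.28 and −0.0048 in SNI samples, against 0.27, 0.0048 and 0.12 in control samples. SNI sample 3 and control sample 2 nearly met at 0, and the difference was −0.26 (SE 0.092, adjusted p = 0.305). Its call depended on single samples. The difference was −0.18 without SNI sample 2, −0.19 without control sample 1 and −0.26 without control sample 3, each short of the unadjusted threshold. With all samples kept, Pcdh8 also missed that threshold in the methods' t-test (unadjusted p = 0.080). The other 6 genes ranged from −0.07 for Pcdh19 to 0.14 for Pcdh15, a tip-link protein of hair cells.

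Without a covariate, the cadherins proper were spread evenly around 0. Of the 16 genes 8 had a difference below 0, 1 was higher and none was lower, with a median of −0.0015, whereas the 17 protocadherins had 13 below 0, 4 lower and a median of −0.07. That contrast between both groups was not tested. The family medians moved with the hybridization controls as a covariate. Type I cadherins went from 0.035 to 0.25, type II from −0.025 to 0.071 and the remaining cadherins from −0.017 to 0.046. The protocadherins outside the clusters went from −0.059 to −0.19. Cdh22, a type II cadherin known as the pituitary and brain cadherin, had values of 0.03, 0.10 and 0.15 in SNI samples, against −0.02, −0.18 and −0.15 in control samples. The groups did not overlap and the difference was 0.21 (SE 0.065, adjusted p = 0.249). It was 0.18 and missed the unadjusted threshold without SNI sample 3.

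Cdh2, the N-cadherin of synaptic junctions, had values of 0.04, −0.11 and −0.04 in SNI samples, against 0.07, 0.04 and 0.07 in control samples. One SNI sample reached the control range, and the difference was −0.10 (SE 0.058). The 3 probe sets of Cdh2 differed in sign, at −0.20 with groups that did not overlap, −0.13 and 0.04. Cdh17 had the smallest p among the cadherins of neither type I nor type II, with a difference of 0.10 (SE 0.083). The largest type II difference below 0 was that of Cdh12, at −0.26 (SE 0.14), within a spread of −0.38 to 0.10 in SNI samples and −0.13 to 0.29 in control samples. The other 6 type II genes ranged from −0.09 for Cdh11, known from mesenchyme and brain, to 0.05 for Cdh8. Cdh1, Cdh3, Cdh15 and Cdh16 lay between −0.03 and 0.07, Cdh13, a cadherin anchored by a lipid and without a cytoplasmic part, at −0.0052, and Cdh23, which joins Pcdh15 in the tip link, at −0.04.

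**Figure D2:**
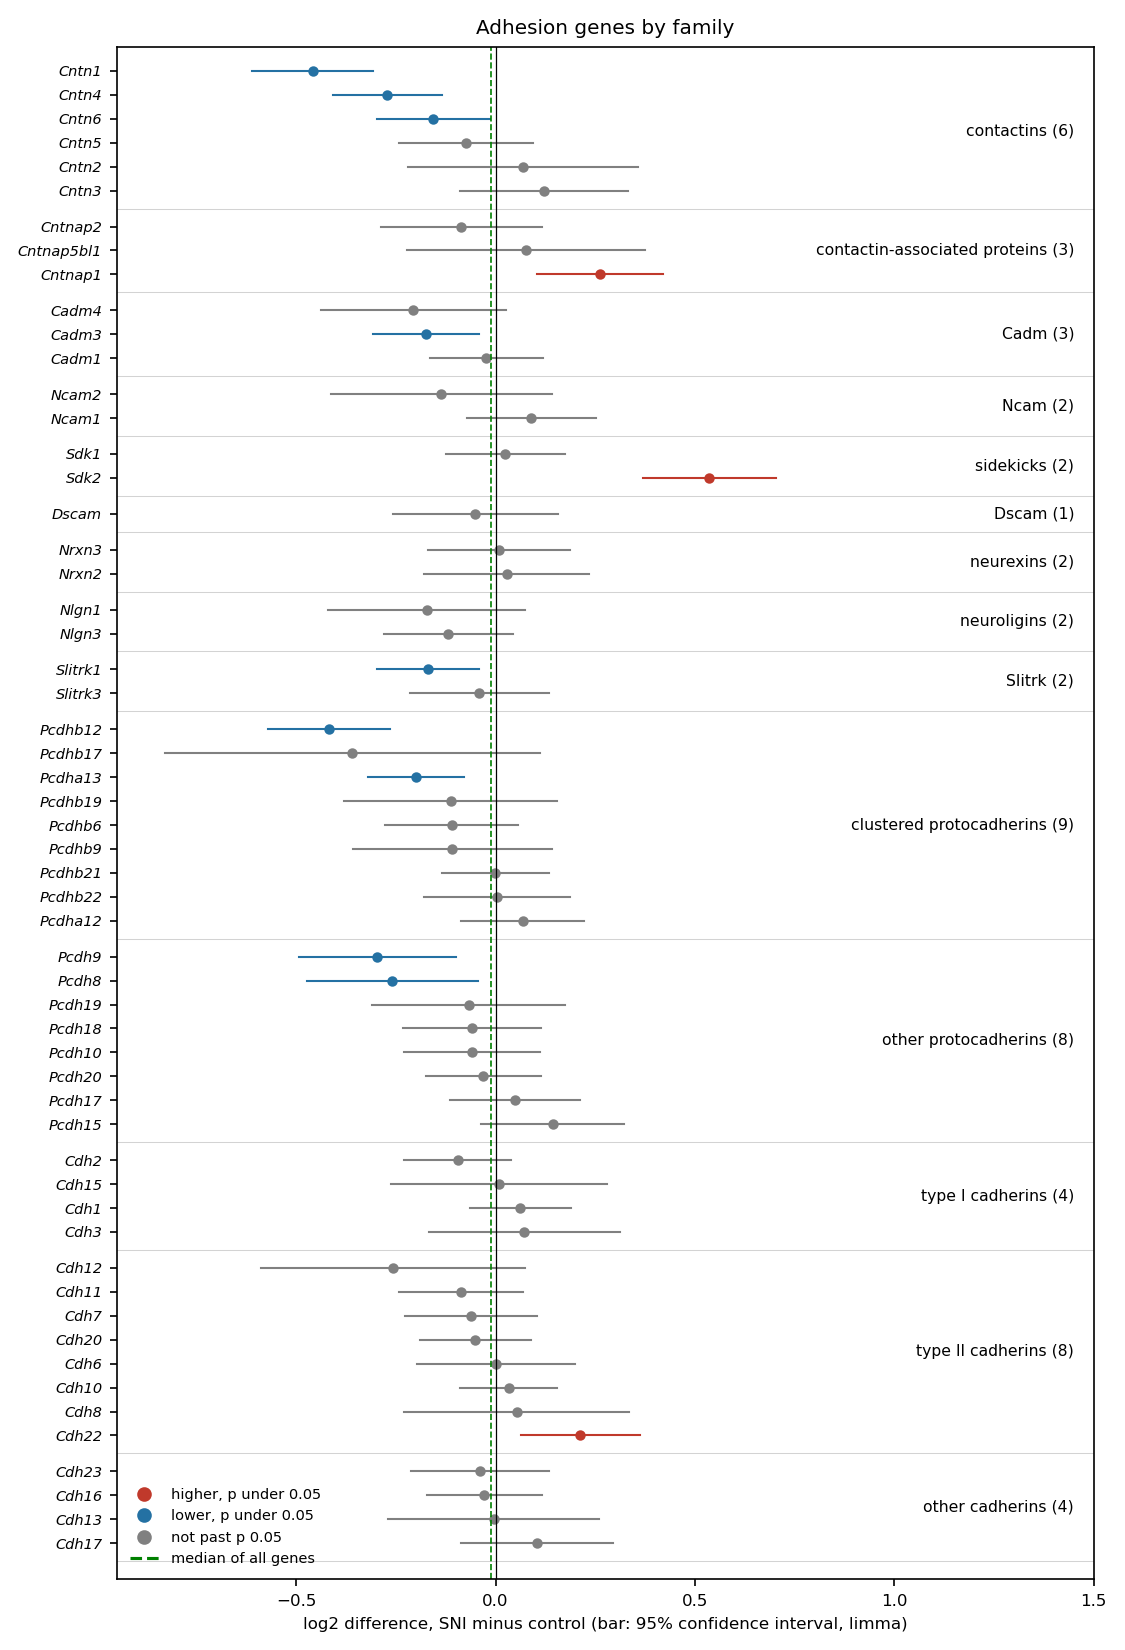
Log2 difference, SNI minus control, of the 56 genes grouped by family, with 95% confidence intervals from limma. The dashed line is the median of all genes, −0.01; the 3 genes in red and the 9 in blue passed an unadjusted p of 0.05, and contactins and protocadherins hold 7 of the 9.

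Set side by side, 6 of the 14 families held no gene past the threshold: the Ncam genes, Dscam, the neurexins, the neuroligins, the type I cadherins and the remaining cadherins. Among the families of 3 or more genes, the contactins and the Cadm genes had a family mean that lay lower in every SNI sample than in every control sample. The contactin mean was −0.06, −0.01 and −0.08 in SNI samples, against 0.05, 0.06 and 0.12 in control samples. The Cadm mean was −0.01, −0.04 and −0.05 in SNI samples, against 0.03, 0.11 and 0.16 in control samples. For the clustered protocadherins it was −0.02, −0.09 and −0.06 in SNI samples, against 0.19, −0.03 and 0.09 in control samples, where control sample 2 lay inside the SNI range. The contactin and Cadm means hold the genes already named as separated, which in the Cadm family is Cadm3 alone. Of single genes over the series, 13.7% were separated downward, and no such share was computed for family means. Among smaller families, the sidekick mean was 0.12 to 0.16 in SNI samples, against −0.19 to −0.06 in control samples. The neuroligin mean was −0.09 to 0.010 in SNI samples, against 0.013 to 0.17 in control samples. Differences between families were not tested.

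Probe sets of the same gene often disagreed. Taken singly, 5 of the 84 member probe sets were higher and 13 were lower, beside 5.6% higher and 7.47% lower over all probe sets. Of the 20 genes with more than 1 probe set, 13 had probe sets that differed in sign. In 9 of the 20 at least 1 probe set passed the unadjusted threshold, and in 2, Cadm3 and Cdh22, all of them did. For Cadm3 the probe sets gave −0.16 and −0.19, and for Cdh22 they gave 0.22 and 0.21.

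**Figure D3:**
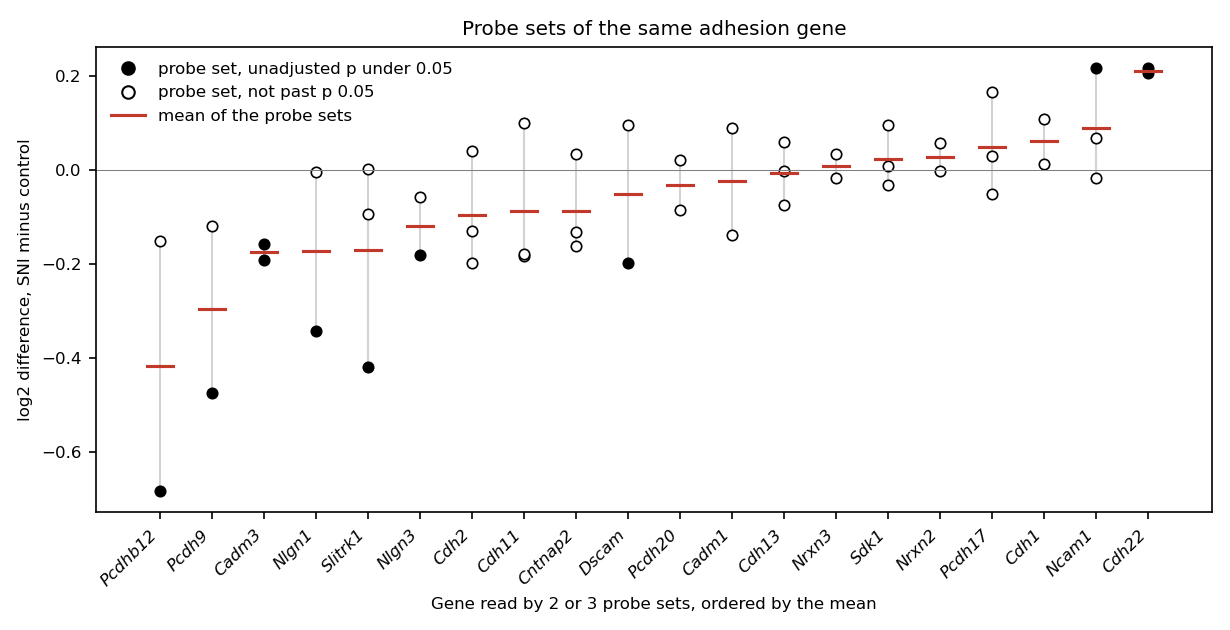
Log2 difference, SNI minus control, of each probe set of the 20 genes read by more than 1, with the gene mean as a red line and filled points for an unadjusted p under 0.05. Only in Cadm3 and Cdh22 are all points filled, while in Pcdhb12, Slitrk1, Pcdh9 and Nlgn1 a single probe set carries the difference.

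Proteins that bind or anchor these molecules were examined as a list of 79 genes, of which 71 were measured. Of them, 3 were higher and 6 were lower, shares close to the 3.96% higher and 9.19% lower over all genes, so the list as a whole did not stand out, and its median difference was −0.0015. The partners named below are given as single values. Among 33 partners of neurexins and neuroligins, 1 was higher and 4 were lower. Cbln1, a secreted cerebellin that bridges neurexins to postsynaptic delta glutamate receptors, had values of −0.13, −0.10 and −0.19 in SNI samples, against 0.34, 0.15 and 0.03 in control samples. The groups did not overlap, with a difference of −0.32 (SE 0.082, adjusted p = 0.216).

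Nxph3, a neurexophilin that binds alpha-neurexins, differed by −0.37 (SE 0.10), and Clstn2, a calsyntenin of the postsynaptic membrane, by −0.20 (SE 0.060). Shank3, a scaffold of the postsynaptic density, differed by 0.23 (SE 0.073). Of 12 cadherin partners only Afdn, the actin-binding afadin of nectin junctions, passed, at −0.18 (SE 0.055). Of 26 receptors and relatives 2 were higher and 1 was lower, and all 3 were band 4.1 proteins, which tie membrane proteins to the spectrin skeleton. Epb41l2 differed by 0.25 (SE 0.080) and Epb41l1 by 0.13 (SE 0.057), while Epb41l3 differed by −0.18 (SE 0.061). Epb41l2 missed the threshold without SNI sample 1, at 0.21. None of the partners had an adjusted p under 0.05.

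Some markers of whole cell types also passed the threshold, and in bulk tissue fewer cells of a type and less RNA per cell cannot be told apart. Over all genes 3.96% were higher, 9.19% were lower and 6.39% were separated upward. Of 11 neuronal markers 1 was higher and 2 were lower, with a median of −0.13, and their mean ranged from −0.10 to −0.0092 in SNI samples and from −0.02 to 0.16 in control samples. Of 8 microglial markers 5 were higher, with a median of 0.26 and a mean of 0.06 to 0.18 in SNI samples, against −0.18 to −0.07 in control samples. Of 5 markers of oligodendrocyte precursors 2 were higher and all 5 were separated upward. Of 5 striatal markers 2 were lower, with a mean of −0.07 to −0.05 in SNI samples, against 0.07 to 0.10 in control samples. Of 6 endothelial markers 2 were higher, and of 6 myelin markers 1, Cldn11, was lower with groups that overlapped. None of 7 astrocyte, 5 meningeal or 3 choroid plexus markers passed. The part of cell types in the differences of the adhesion genes was not tested.

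The hybridization controls moved with the group as well, being higher in SNI samples by 0.27. Their array means were 0.19, 0.054 and 0.097 in SNI samples, against −0.047, −0.20 and −0.22 in control samples, without overlap. As a covariate they are thus confounded with the group, and the fit cannot tell both apart. With their array mean as a covariate, 9 of the 12 genes no longer passed an unadjusted p of 0.05, and Sdk2, Pcdhb12 and Pcdh8 did, at 0.71, −0.60 and −0.55. Of the 9, Cntnap1 at 0.28 and Pcdha13 at −0.18 kept nearly the same difference, and Slitrk1 grew to −0.27. The rest shrank: Cntn1 to −0.30, Cntn4 to −0.20, Cntn6 to −0.09, Pcdh9 to −0.20, Cdh22 to 0.13 and Cadm3 to −0.12. All the contactins named as lower thus missed the unadjusted threshold under that fit. Under that fit 2 members were higher and 6 were lower, beside 4.05% and 4.42% of all genes, and Pcdhb17 at −1.32 and Dscam at −0.38 passed the unadjusted threshold. All 12 genes kept their direction in the 13 settings tried, this one included, and Sdk2 and Pcdhb12 passed the unadjusted threshold in each. With 3 samples against 3, an exact permutation test of a single gene cannot give a two-sided p below 0.1.

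**Figure D4:**
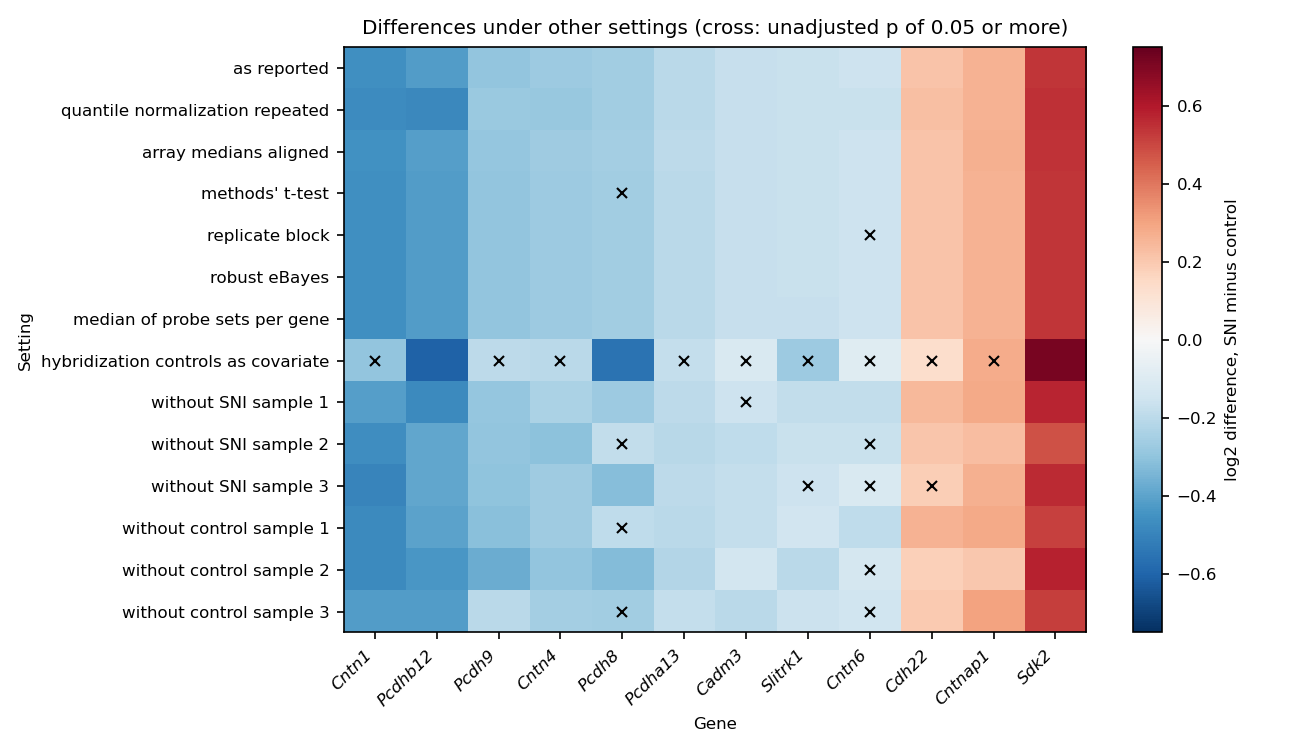
Log2 difference, SNI minus control, of the 12 genes as reported and under 13 other settings, coloured blue below 0 and red above 0, with a cross where the unadjusted p was 0.05 or more. Crosses fill 9 columns when the hybridization controls enter as a covariate, and Sdk2 and Pcdhb12 have none.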

How the data were processed

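mRNA of the contralateral PL was measured on Affymetrix rat arrays in 3 SNI and 3 control samples. The authors corrected the arrays with RMA and quantile normalization and deposited log2 values, in which every probe set has a median of 0 over the samples; that centring is not described, and software versions were not given in the sources used here. Without levels, no detection filter was possible, and depth has no meaning for arrays: the number of arrays limits the precision.

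Symbols came from the platform annotation. Of 31099 probe sets, 57 array controls were left out; 20826 carried 1 symbol, 436 several and 9780 none. Gene values, the mean of probe sets, were fitted with lmFit and eBayes of limma 3.58.1 in R 4.3.3, two-sided, as SNI minus control; Benjamini-Hochberg adjustment ran over the 14217 genes, or over the 31042 probe sets. The fit was tested on simulated data. Plots used Python 3.11.15 and matplotlib 3.10.9. Sequences came from RefSeq tables of GRCr8, in which 54 of 56 member IDs matched.

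The members and lists were chosen with earlier results of these data known. The genes named were those with an unadjusted p under 0.05 and separated groups, the smallest p of each family, the 3 largest differences each way, all neurexins and neuroligins, and up to 6 partners with separated groups. Other members given with values, such as Cadm4, Cntn2 and Cdh12, and the partners Epb41l1 and Epb41l3, were named after their values were seen. Alternatives were repeated quantile normalization, aligned medians, the methods' t-test, the replicate block, robust eBayes, the median of probe sets, single probe sets, other thresholds, a covariate and leaving out each sample. One gene is not reported here.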

Additional observations from a re-analysis of the deposited data

Results flagged for a closer look

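A single probe set that reads 14 Pcdhg symbols, and so belongs to no member gene, had every SNI sample above every control sample. Over all genes 6.39% were separated in this way, but the same share over single probe sets was not computed. The log2 values of the probe set were 0.018, 0.10 and 0.14 in SNI samples, against −0.018, −0.03 and −0.03 in control samples. The difference was 0.11 (SE 0.061, limma adjusted p = 0.503). The probe set for 13 Pcdhg symbols did not share it, at −0.03 with groups that overlapped. The direction of the probe set for 14 symbols was opposite to that of the Pcdha probe sets with several symbols, which lay at −0.22 and −0.26. The difference between the clusters was not tested.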

How the results depend on the processing

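The 12 genes kept their direction under all 13 alternatives with a fit over all genes, and none of the 56 reached an adjusted p under 0.05 in any; the lowest was 0.0738, for Sdk2 and Cntn1 with quantile normalization repeated. Counts moved more. Genes higher in SNI, 3 as reported, became 5 probe sets, from 4 genes, with probe sets taken singly, and were 0 at an adjusted p under 0.05 and 2 to 5 when single samples were left out, the 5 without control sample 2. Genes lower in SNI, 9 as reported, were 5 at an unadjusted p under 0.01, 0 at an adjusted p under 0.05, and 7 to 13 when single samples were left out, with 13 again without control sample 2, where 8.53% of all genes were higher and 14.6% lower. Partner genes past the threshold, 9 as reported, were 5 with the hybridization covariate and 7 to 15 when single samples were left out, while 23 partner probe sets passed when taken singly. The median difference of the 56 genes ranged from −0.07 to −0.03.

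Sign changes were seen in genes near 0 and with the covariate. Nrxn3 was −0.0060 with repeated quantile normalization, −0.17 with the hybridization covariate and −0.069 to 0.052 when samples were left out. The covariate also gave Ncam1 −0.030, Nlgn3 0.045 and Epb41l2 −0.0033. Leaving out single samples gave Dscam −0.12 to 0.010 and Nrxn2 −0.054 to 0.096. Of 181 family medians under alternatives, 28 moved beyond the spread between replicates. With the hybridization covariate, every family median moved that far except those of the neurexins and neuroligins. The cause was not tested.

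Same-numbered samples did not deviate together over all genes (correlations −0.022, −0.0074 and −0.045). With 3 samples a group this cannot show whether the numbers pair the samples, and the labels do not say. With the replicate block, 3 genes were higher and 9 lower as before, Cntn6 missing the threshold and Pcdhb17 passing it at −0.36.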
